A study of Mus musculus with 8 samples.

Results

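Enzymes of glycolysis were followed in RNA from light and heavy polysomes of the mouse main olfactory epithelium: Gpi1, Aldoa, Aldoc, Tpi1, Gapdh, Pgk1, Eno1, Eno2, Pkm and Ldha. They are 10 of the 21765 gene symbols in the deposited expression table and were picked by symbol as enzymes of 1 pathway, around Aldoc, whose rise from early to late polysomes was the largest among the 16097 genes tested (mean TPM of at least 1). That rise was 1.81 on the log2 scale, and the next gene in order, Aqp3, stood at 1.80. The values that ranked Aldoc and set it apart from Aqp3 are therefore a description and carry no test here. Late minus early differences of the other 9 enzymes come from the same comparison and are given in the same way.

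On a sucrose gradient, transcripts loaded with more ribosomes sediment further. Tissue was exposed to 100 µg/mL cycloheximide, which holds ribosomes on their transcripts, and about 42 fractions of 350 µL were taken from each gradient, with 50 µL of each pooled. Fractions 27 to 34 made up the early (lighter) polysomes and fractions 35 to 42 the late (heavier) polysomes. WT mice carried Mex3a flox/flox or flox/+, and the conditional knockout (cKO) mice carried Mex3a flox/flox with Cre, so a floxed Mex3a allele was shared by all groups. Mex3a encodes an RNA-binding protein. WT early, WT late, cKO early and cKO late each had 2 libraries, from lysates named WT1, WT2, KO1 and KO2. Age, sex and the number of animals behind a lysate are not given in the sources used here, so tests measure the spread between these lysates.

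Glycolysis splits glucose into pyruvate in the cytosol and yields ATP and NADH without oxygen. Gpi1 converts glucose 6-phosphate to fructose 6-phosphate, aldolases split the doubly phosphorylated sugar, and Tpi1 interconverts the 2 three-carbon products. Gapdh and Pgk1 carry out the oxidation and the first ATP-yielding step, enolases make phosphoenolpyruvate, Pkm makes pyruvate, and Ldha reduces pyruvate to lactate. Several steps are shared by isoenzymes: Aldoa is the widespread aldolase and Aldoc the form best known from brain, Eno1 the widespread enolase and Eno2 the neuronal one. In the olfactory epithelium, sensory neurons lie among sustentacular cells, a supporting epithelial type rich in detoxifying enzymes.

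The coding sequences of the paired isoenzymes bear on whether their reads can be told apart. In mm10 (GRCm38), Aldoc spans chr11:78322968-78327781 (plus strand) and Aldoa spans chr7:126795234-126800751 (minus strand). In the GENCODE models for that build, the coding sequence was 1092 nt in Aldoc and 1095 nt in Aldoa, with 9 exons each. Of the aligned bases 75.6% were identical, with 266 differences. The first 120 coding bases, 5′ to 3′, are shown because the aldolases differ at 24 of them, given in capitals.
Aldoa: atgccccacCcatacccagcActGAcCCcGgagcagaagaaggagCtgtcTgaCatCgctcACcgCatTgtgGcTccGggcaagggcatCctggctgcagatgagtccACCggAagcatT
Aldoc: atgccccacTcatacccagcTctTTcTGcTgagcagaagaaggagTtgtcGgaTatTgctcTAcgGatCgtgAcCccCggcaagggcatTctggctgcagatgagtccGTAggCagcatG

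Lactate dehydrogenase gives a second pair of nearly equal coding length, 999 nt in Ldha (chr7:46841475-46855627, plus strand) and 1005 nt in Ldhb (chr6:142490249-142507957, minus strand). Ldhb, which favours the reverse reaction, is not among the 10 and serves as a comparison. Their coding sequences were identical at 71.5% of aligned bases. The first 120 aligned bases without a gap are coding bases 54 to 173 of Ldha and 57 to 176 of Ldhb, with the 35 differing bases in capitals.
Ldha: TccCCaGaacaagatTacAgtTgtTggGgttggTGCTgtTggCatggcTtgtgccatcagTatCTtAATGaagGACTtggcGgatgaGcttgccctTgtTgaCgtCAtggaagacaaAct
Ldhb: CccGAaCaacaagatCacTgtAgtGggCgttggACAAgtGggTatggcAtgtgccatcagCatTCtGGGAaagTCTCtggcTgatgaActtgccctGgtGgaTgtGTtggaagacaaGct

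For Aldoc, 0 of 2737 words of 50 bases in the transcript occurred in a transcript of another gene. The share was 0.3% for Eno2, 7.5% for Tpi1, 13.9% for Aldoa, 17.1% for Ldha, 19.6% for Gpi1 and 30.5% for Pkm. It was far higher for Pgk1 (68.0%, mostly with Pgk1-rs7), Eno1 (72.2%, mostly with Eno1b) and Gapdh (82.5%). For Gapdh 222 other genes shared words, and Gm7336 alone held 82.5%. Levels of Pgk1, Eno1 and Gapdh are therefore uncertain, because how the authors assigned reads that match several genes is not given in the sources used here.

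Expression was deposited as TPM (transcripts per 1000000 transcripts), a measure per length, so levels of different genes can be set side by side. Whole reads inferred from the steps between TPM values summed to 7776792 to 12771079 per library. Across genes, r between the 2 libraries of a group was 0.978 to 0.985 on the log2 scale. Mex3a, the deleted gene, stood at 97.41 and 115.6 TPM in early and at 93.18 and 95.65 TPM in late polysomes of WT. The corresponding cKO levels were 13.87 and 19.8, then 11.06 and 13.8 TPM. The library at 115.6 carries the cKO genotype in its labels, against its title, and is called WT early lysate 2 below. The fall of Mex3a passed the limma test in early polysomes (log2 difference -2.55, SE 0.18, adjusted p = 0.00457) and in late polysomes (-2.79, SE 0.18, adjusted p = 0.00282). The early call was lost without that library (-2.42, adjusted p = 0.0501) or without WT early lysate 1 (-2.69, adjusted p = 0.0804). The late call was lost without WT late lysate 1 (adjusted p = 0.0901) or lysate 2 (adjusted p = 0.0945).

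The 10 transcripts together made up 0.127% to 0.152% of all TPM in early libraries and 0.312% to 0.329% in late libraries. Their summed level was between 1271 and 1523 TPM in the 4 early libraries and between 3117 and 3293 in the 4 late libraries, with no overlap. Of the 10, 9 had a mean TPM of at least 1 and were tested, and these 9 lay above 1 TPM in every library. Eno1 was the exception. It was listed at 0, 0.586, 0.1332 and 0.5161 TPM in the WT libraries (early 1 and 2, late 1 and 2) and at 0.1184, 0.2566, 0.7688 and 0 in the cKO libraries. At most 5 inferred reads lay behind any of these. The Eno1 and Eno1b coding sequences are 99.4% identical, with 8 different bases in 1305, and Eno1b was above Eno1 at 0.7323 to 8.006 TPM. For that reason the low Eno1 value is not read as absence of the widespread enolase.

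By mean scaled TPM over the 8 libraries the order was Aldoa (585), Pkm (574), Gapdh (444), Tpi1 (206), Ldha (164), Gpi1 (154), Aldoc (61.1), Pgk1 (47.7) and Eno2 (19.8). Aldoa and Pkm did not differ beyond their spread in either fraction (log2 difference of levels 0.08 ± 0.10 in early and 0.00 ± 0.17 in late libraries, SD, n = 4 each). Aldoa was nonetheless above Pkm in 4 of 4 early libraries, and in 2 of 4 late ones. Other neighbours depended on the fraction. Tpi1 was above Ldha in 4 of 4 early libraries (0.91 ± 0.12) but not beyond the spread in late ones (-0.02 ± 0.17). Ldha and Gpi1 were level in early libraries (-0.03 ± 0.06), and Ldha was above Gpi1 in 4 of 4 late libraries (0.14 ± 0.09). Aldoc and Pgk1 did not differ beyond their spread in early libraries (-0.19 ± 0.33), whereas Aldoc was above Pgk1 in 4 of 4 late libraries (0.54 ± 0.18). Gapdh stood above Tpi1, Gpi1 above Aldoc, and Pgk1 above Eno2 in 8 of 8 libraries. Every order that involves Pgk1 or Gapdh rests on levels that are uncertain, because much of their sequence is shared with other genes.

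**Figure D1:**
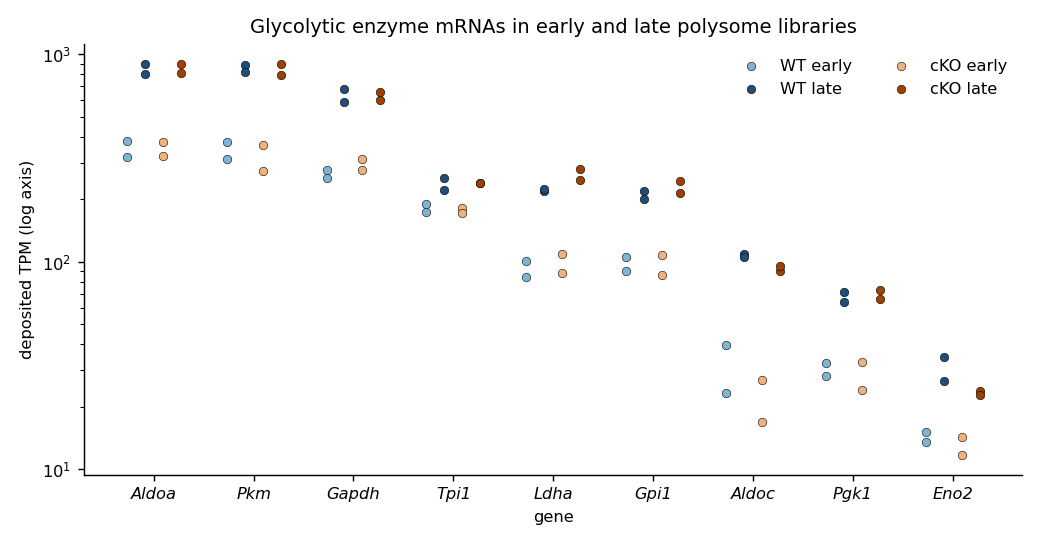
Deposited TPM (log axis) of 9 glycolytic enzyme transcripts in the 8 polysome libraries, in order of mean level, with 1 point per library and colours for the 4 groups. Eno1, at or near 0, is not drawn. For each of the 9 genes the 4 late libraries lie above the 4 early ones, and Tpi1 shows the narrowest gap.

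The first comparison set late against early polysomes. Values that follow are deposited TPM, given as lysate 1 and lysate 2. For each of the 9 tested enzymes, every late library was above every early library. A gap of that kind, late above early with no overlap, was seen for 31.5% of the 16097 genes tested, and the enzymes were chosen with this comparison known.

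At the step before aldolase, Gpi1 went from 104.8 and 89.76 in early to 200.1 and 219.6 in late polysomes of WT lysates, and from 107.9 and 85.79 to 213.0 and 244.3 in cKO lysates. Its level in late polysomes was 2.08 times that in early polysomes after scaling.

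Aldoa, the widespread aldolase, went from 381.5 and 317.5 in early to 800.4 and 891.7 in late polysomes of WT lysates, and from 375.8 and 323.3 to 808.9 and 900.4 in cKO lysates. Aldoc went from 39.67 and 23.28 in early to 108.2 and 105.7 in late polysomes of WT lysates, and from 26.89 and 16.75 to 90.11 and 95.48 in cKO lysates. The 4 late Aldoc values lay close together, whereas the early values spread more, from the lowest in cKO lysate 2 to the highest in WT lysate 1. Mean scaled Aldoc was 27.3 ± 9.32 TPM in early and 94.9 ± 6.55 TPM in late libraries (SD, n = 4 each), a ratio of 3.47, against 2.24 for Aldoa. Behind the Aldoc values were 211 to 552 inferred reads in early and 739 to 1324 in late libraries.

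Tpi1 went from 190.2 and 174.0 in early to 222.0 and 254.0 in late polysomes of WT lysates, and from 182.0 and 170.6 to 238.6 and 239.3 in cKO lysates. It had the smallest ratio of the 9, 1.23, although the groups did not overlap. Gapdh went from 277.0 and 253.5 in early to 586.6 and 679.3 in late polysomes of WT lysates, and from 312.4 and 276.8 to 603.1 and 653.2 in cKO lysates. Pgk1 went from 32.44 and 27.94 in early to 64.01 and 71.57 in late polysomes of WT lysates, and from 32.72 and 24.1 to 72.57 and 65.83 in cKO lysates. The late to early ratio was 2.07 for Gapdh and 2.16 for Pgk1.

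In the last steps, the neuronal enolase Eno2 went from 15.12 and 13.54 in early to 34.75 and 26.62 in late polysomes of WT lysates, and from 14.28 and 11.65 to 23.82 and 22.67 in cKO lysates. Pkm went from 375.9 and 313.8 in early to 881.7 and 819.7 in late polysomes of WT lysates, and from 363.0 and 274.2 to 895.2 and 793.4 in cKO lysates. Ldha went from 100.1 and 84.02 in early to 219.0 and 222.8 in late polysomes of WT lysates, and from 108.3 and 87.84 to 247.6 and 278.8 in cKO lysates. The ratio was 1.82 for Eno2, 2.36 for Pkm and 2.35 for Ldha, so only Tpi1 and Eno2 among the 9 stayed below a doubling.

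Taken within each lysate on the log2(scaled TPM + 1) scale, the late minus early difference of Aldoc was 1.34 (WT1), 2.01 (WT2), 1.63 (KO1) and 2.28 (KO2), with a mean of 1.81 ± 0.42 (SD, n = 4 lysates). A tight group followed it: Pkm at 1.24 ± 0.09, Ldha at 1.22 ± 0.20, Aldoa at 1.17 ± 0.19, Pgk1 at 1.09 ± 0.17, Gapdh at 1.05 ± 0.18 and Gpi1 at 1.05 ± 0.23. Eno2, at 0.81 ± 0.19, and Tpi1, at 0.29 ± 0.12, were lowest. Each of the 9 differences was above 0 in 4 of 4 lysates. Among 12129 genes with a mean scaled TPM of at least 5 and no placeholder symbol, Aldoc ranked 1, Pkm 161, Ldha 181, Aldoa 282, Pgk1 434, Gpi1 528, Gapdh 532, Eno2 1531 and Tpi1 4842. At an adjusted p under 0.05 by limma, 34.3% of all genes tested were higher in late polysomes, and 9 of the 9 enzymes were among them. In WT alone it was 9 of 9 beside 27.1% of all genes, and in cKO alone 9 of 9 beside 28.9%. With lysate as a block, and when each genotype was fitted on its own 4 libraries, the count within each genotype was 8 of 9, without Tpi1. Leaving out any 1 cKO library also removed Tpi1 in both genotypes, and leaving out either WT early library or WT late lysate 2 removed it in WT. Because the genes were chosen with this comparison known, nothing is read from these counts. Without WT early lysate 2, the mean Aldoc difference was 1.63.

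For these enzymes, lysate 2 differed from lysate 1 in a way common to both genotypes. In early libraries, lysate 2 had lower deposited TPM than lysate 1 for 9 of the 9 enzymes in WT and for 9 of 9 in cKO. The late minus early difference was larger in lysate 2 for 8 of the 9 in WT, all but Eno2, and for 9 of 9 in cKO. The share of all genes that did the same was not computed, and deposited TPM is not scaled. These counts are therefore not read as a trait of the enzymes.

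**Figure D2:**
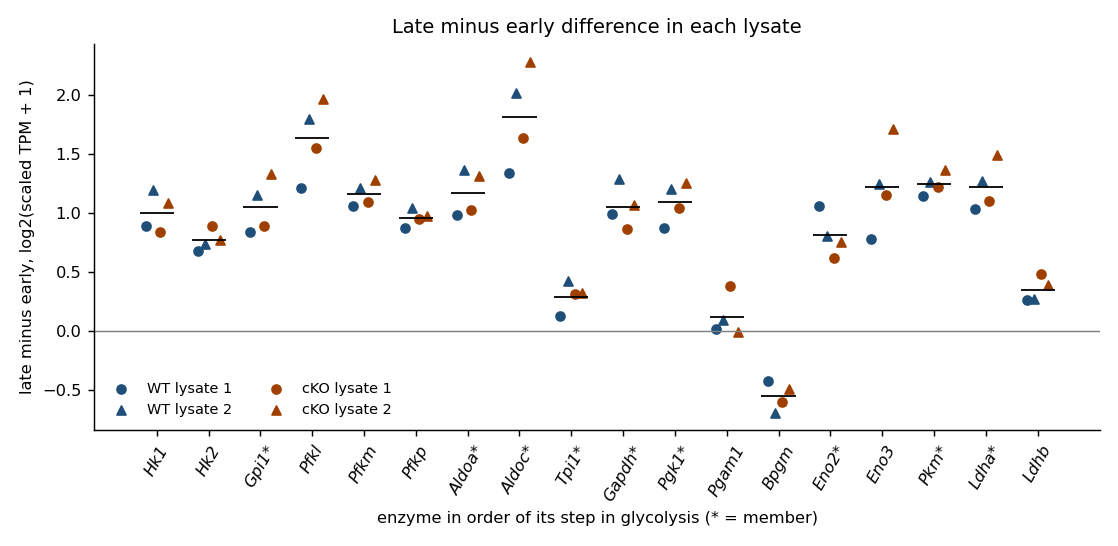
Late minus early difference on the log2(scaled TPM + 1) scale for the 9 tested members (asterisks) and 9 other enzymes, ordered by their step in glycolysis. Each point is 1 lysate (blue WT, brown cKO, circles lysate 1, triangles lysate 2) and bars are means of 4 lysates. Aldoc and Pfkl stand highest, and the means of Tpi1, Pgam1, Bpgm and Ldhb lie at 0.35 or lower.

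Of 20 other glycolytic enzymes listed, 13 were tested, of which 9 were higher in late polysomes and 2 lower by limma, with a median difference of 0.77. Over all genes tested, 34.3% were higher and 34.6% lower, with a median difference of -0.011. The highest of the 13 among genes with at least 5 TPM were Pfkl, the liver-type phosphofructokinase, at 1.63 ± 0.32, and Eno3, the muscle-type enolase, at 1.22 ± 0.38 (SD, n = 4 lysates). Bpgm, which makes 2,3-bisphosphoglycerate, was among the lower genes, at -0.55 ± 0.12. Named after their values were seen, Pfkm (1.16 ± 0.10), Hk1 (1.00 ± 0.17), Pfkp (0.96 ± 0.07) and Hk2 (0.77 ± 0.09) lay in the range of the 9 enzymes, and Pgam1, at 0.12 ± 0.18, was above 0 in 3 of 4 lysates.

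Among 10 genes of glucose, lactate and pyruvate transport, 9 were tested, of which 4 were higher and 3 lower in late polysomes. For this and the pathway lists that follow, the shares over all genes tested were 34.3% higher and 34.6% lower. The glucose transporter Slc2a1 stood at 1.27 ± 0.35 and Slc2a3 at 0.59 ± 0.11. The mitochondrial pyruvate carrier subunits Mpc2 (-1.63 ± 0.29) and Mpc1 (-1.38 ± 0.10) were lowest, and their coding sequences are short, at 384 and 330 nt. In the pyruvate dehydrogenase and citric acid cycle list 18 of 21 were higher and 3 lower, from Sdha (1.28 ± 0.17) and Fh1 (1.03 ± 0.27) down to Sdhc (-0.83 ± 0.06) and Sdhd (-1.27 ± 0.30), the membrane anchors of succinate dehydrogenase. All 5 tested gluconeogenesis genes were higher, led by Fbp2 (1.43 ± 0.39) and Pcx (1.06 ± 0.25), with Pck2 (0.77 ± 0.16) and G6pc3 (0.38 ± 0.15) lowest. In the pentose phosphate pathway 5 of 8 were higher, led by Pgd (1.16 ± 0.27) and Tkt (1.04 ± 0.18), and 3 were lower, led by Rpe (-1.12 ± 0.21) and Rpia (-0.86 ± 0.28).

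Genes that regulate entry to glycolysis or to the citric acid cycle showed smaller differences. Of 11 such genes 5 were higher and 2 lower, with a median of 0.24. The pyruvate dehydrogenase phosphatase Pdp2 stood at 0.65 ± 0.17 and Pfkfb3, which makes the allosteric activator of phosphofructokinase, at 0.39 ± 0.17. The pyruvate dehydrogenase kinases Pdk1 (-0.58 ± 0.15) and Pdk2 (-0.21 ± 0.20) were the 2 lower genes. Of 17 genes of the hypoxia pathway, whose transcription factor is known to induce many glycolytic genes, 6 were higher and 7 lower, with a median of -0.10. Ndrg1 (1.18 ± 0.30) and P4ha1 (0.76 ± 0.14) were highest, and Higd1a (-1.66 ± 0.35) and Bnip3 (-1.19 ± 0.26) lowest.

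Longer coding sequences have room for more ribosomes, and the late minus early difference moved with coding length across genes. In 10 bins of equal size, the median difference went from -1.12 at a median coding length of 408 nt to 0.50 at 4500 nt. A coding length was at hand for 91.1% of the genes tested. The 9 enzymes have coding sequences of 900 to 1677 nt, so each was set beside genes within 10% of its own length. Aldoc lay 1.89 above the median of 1548 such genes, and its place above all of them follows from its rank among all genes. Percentiles of the others describe the same comparison and are no test. Ldha lay 1.40 above its median, at the 99.2 percentile, and Gapdh (98.5), Pkm (98.4), Aldoa (98.3), Pgk1 (96.3) and Gpi1 (94.9) followed. Eno2 (87.7 percentile) and Tpi1 (82.0 percentile) lay nearest to genes of their length.

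**Figure D3:**
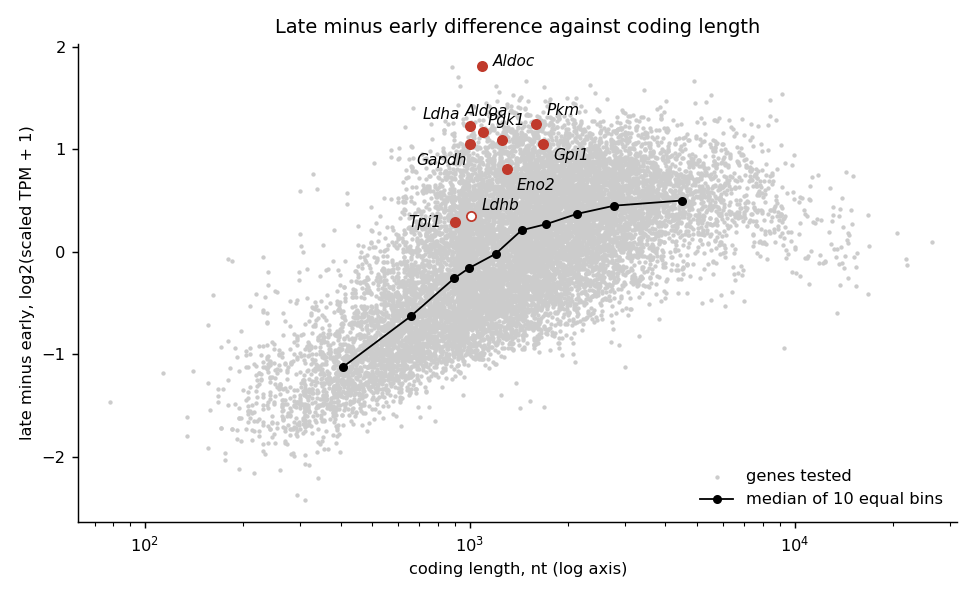
Late minus early difference on the log2(scaled TPM + 1) scale against coding length in nt (log axis) for every tested gene with a coding length (grey), with medians of 10 equal bins (black), the 9 glycolytic enzymes (red) and Ldhb (open circle). All 9 enzymes lie above the line of medians, with Aldoc at 1.81 farthest above it.

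Other features of the transcripts were not used in choosing them. The share of G or C at the last position of codons was above the median of all genes (60.6%) in 8 of the 9, from 60.7% in Aldoc to 73.3% in Gpi1, and below it in Pgk1 (54.3%). The interquartile range over all genes was 51.7% to 68.2%. In the same gene models the 5′ untranslated region was longer than the median of 185 nt in 6 of the 9. It was 267 nt in Aldoc, 282 nt in Ldha and 24 nt in Tpi1. Tpi1 had the smallest late minus early difference, but Gpi1 (123 nt) and Pgk1 (151 nt) were also below the median and stood at 1.05 and 1.09. Eno2 (252 nt) was above the median and stood at 0.81. A link was not tested, and these lengths, like the coding lengths, depend on the transcript model chosen for each gene.

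Isoenzyme ratios describe the same late against early comparison. The ratio of Aldoc to Aldoa TPM went from 0.104 and 0.0733 to 0.135 and 0.119 in WT, early to late, and from 0.0715 and 0.0518 to 0.111 and 0.106 in cKO. The mean was 0.0752 ± 0.0215 in early and 0.118 ± 0.0127 in late libraries (SD, n = 4 each). The lowest late ratio was just above the highest early one. Aldoc was picked for the largest rise of all genes tested, so a higher late ratio follows from that choice and is no test. For lactate dehydrogenase the ratio of Ldhb to Ldha fell in every lysate, from 9.12 and 9.59 to 5.31 and 4.77 in WT and from 7.37 and 8.54 to 4.77 and 3.97 in cKO. Ldhb was the more abundant of the pair in all 8 libraries, at 750.2 to 1182 TPM. Its late minus early difference was 0.35 ± 0.11 against 1.22 ± 0.20 for Ldha (SD, n = 4 lysates), at nearly the same coding length, and placed it at the 82.6 percentile of genes of its length. Between the enolases Eno2 and Eno3 the ratio was 0.492 ± 0.0595 in early and 0.388 ± 0.131 in late libraries, and early and late values overlapped.

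**Figure D4:**
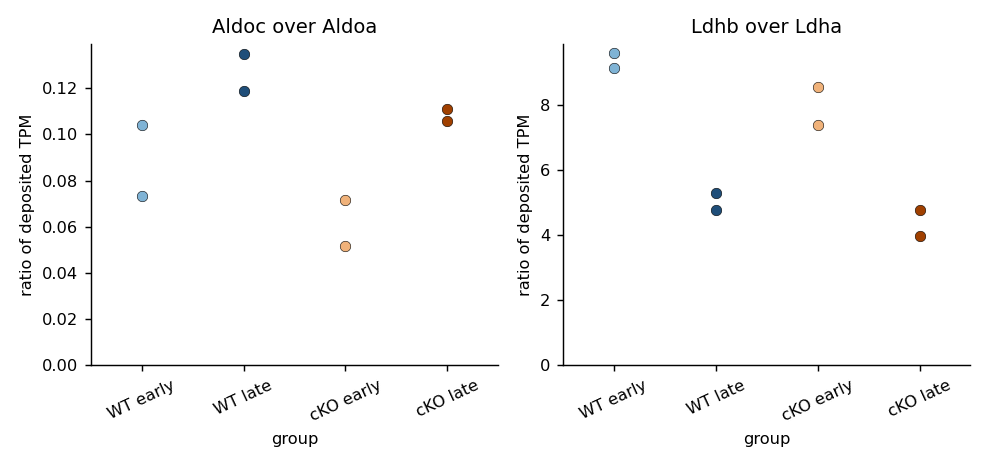
Ratio of deposited TPM of Aldoc to Aldoa (left) and of Ldhb to Ldha (right) in each library, with 1 point per library and 2 libraries per group. Aldoc over Aldoa is higher in late than in early libraries of each genotype, which follows from the choice of Aldoc. Ldhb over Ldha is lower in late libraries, at 3.97 to 5.31 against 7.37 to 9.59.

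Marker lists of cell types were counted in the same way, by limma at an adjusted p under 0.05. Over all genes tested, 34.3% were higher and 34.6% lower in late polysomes, with a median of -0.011. Lists near these shares are not read as differing between the fractions. Of 12 sustentacular cell markers 11 were higher in late polysomes, with a median difference of 1.04, and their summed scaled level was 4000 to 4970 TPM in WT early, 10600 to 10700 in WT late, 3250 to 4900 in cKO early and 11400 to 11800 in cKO late libraries. Of 7 markers of Bowman gland and duct cells 6 were higher, with summed levels of 3300 to 6820 TPM in WT early, 8420 to 12900 in WT late, 5350 to 7170 in cKO early and 12100 to 15400 in cKO late libraries. For mature olfactory sensory neurons 9 of 12 markers were higher and 3 lower, with a median of 0.48. Their summed level was 10700 to 13100 TPM in WT early, 8450 to 8920 in WT late, 11700 to 11900 in cKO early and 7470 to 8470 in cKO late libraries. The other lists were as follows. Of 7 markers of motile ciliated respiratory cells 1 was higher and 4 lower (median -0.51), and of 10 markers of immature olfactory sensory neurons 4 were higher and 5 lower (median -0.25). Of horizontal basal cell markers 6 of 7 were higher (0.73), of globose basal cell markers 5 of 9 were higher and 1 lower (0.37), and of ensheathing glia markers 4 of 8 were higher and 2 lower (0.43). Endothelium had 4 of 6 higher (0.43), macrophages and neutrophils 1 of 8 higher and 3 lower (0.11), skeletal muscle 2 of 4 tested lower (-0.83) and red blood cells 1 of 3 tested lower (0.09). No marker of the lists for sustentacular cells, Bowman gland and sensory neurons was below 1 TPM throughout. The same held for the lists of endothelium and of macrophages and neutrophils, so it does not single out this tissue. Which cells the glycolytic transcripts came from, and the part of these markers in the differences above, was not tested. Early and late libraries of a lysate come from the same cells. Between genotypes, in bulk tissue, fewer cells of a type and less RNA per cell cannot be told apart. TPM is a share of each library, and total RNA of the same lysates was not analysed here.

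The genes whose pattern over the 8 libraries was most like that of Aldoc (Pearson r on the log2 scale) were Mcm6, a subunit of the replicative helicase (r = 0.9998), and Wdr60, which takes part in intraflagellar transport (0.9984). The copper transporter Atp7a (0.9969), the N-myristoyltransferase Nmt1 (0.9967) and the efflux transporter Abcc1 (0.9965) followed. The libraries differ mainly by fraction, so high values of r are common: the closest of the glycolytic enzymes, Pkm, had an r of 0.9784 and ranked 645 of 12128 genes. Mcm6 moved less than Aldoc, by 1.24 ± 0.30 (SD, n = 4 lysates). Aldoa had an r of 0.9645, and Tpi1 the lowest of the 8 other enzymes, 0.9194.

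The second comparison asked whether loss of Mex3a altered these transcripts in either fraction. The rule that chose the genes did not use this contrast, although its earlier results were known. By limma, 0 of the 9 tested enzymes passed an adjusted p of 0.05 in early polysomes, beside 0.0435% of all genes tested. At an unadjusted p under 0.05 there were 0 of the 9, beside 6.65% of all genes. In late polysomes 0 passed, beside 0.0124% of all genes, and 1 had an unadjusted p under 0.05, beside 9.36%. With the 2 fractions of a lysate averaged, 0 passed beside 0.00621% of all genes, and 1 had an unadjusted p under 0.05, beside 11.3%. A second tool, voom on inferred reads, took the summed reads of a lysate in place of that average. It also called 0 of the 9 in early polysomes, in late polysomes and on these sums, beside 20, 15 and 58 genes over all. Of the 9, 0, 1 and 2 had an unadjusted p under 0.05. Over all genes, 1239, 1439 and 2445 had an unadjusted p under 0.05 by voom. Differences (cKO minus WT, log2) lay between -0.44 and 0.21 in early polysomes, with a median of 0.01, and between -0.34 and 0.29 in late polysomes, with a median of 0.05. The medians over all genes were 0.005 and -0.001.

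Ldha, which makes lactate, had the lowest unadjusted p. Its late TPM was higher in both cKO libraries (247.6 and 278.8) than in both WT libraries (219.0 and 222.8), a scaled mean of 254 ± 14.6 against 207 ± 0.64 (SD, n = 2 each). The difference by limma was 0.29 (SE 0.12, 95% interval 0.01 to 0.57, unadjusted p = 0.0462, adjusted p = 0.524). On lysate means it was 0.22 (SE 0.07, 95% interval 0.04 to 0.40, unadjusted p = 0.0259, adjusted p = 0.402). In early polysomes, where the groups overlapped, it was 0.14 (95% interval -0.14 to 0.43, adjusted p = 0.882 by limma).

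Aldoc had the largest early difference of the 9, toward lower values in cKO. Its early TPM was 39.67 and 23.28 in WT against 26.89 and 16.75 in cKO, so that the groups overlapped, and the difference was -0.44 (SE 0.25, 95% interval -1.02 to 0.13, adjusted p = 0.807 by limma). Without WT early lysate 2 it was -0.81 (adjusted p = 0.754), and without WT early lysate 1 it was -0.08 (adjusted p = 1.0). In late polysomes both cKO values lay below both WT values, with a difference of -0.17 (95% interval -0.74 to 0.41, adjusted p = 0.867 by limma). Both intervals include differences of either sign.

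Eno2 was lower in both cKO late libraries (23.82 and 22.67 TPM) than in both WT late libraries (34.75 and 26.62). The difference was -0.34 (SE 0.16, 95% interval -0.70 to 0.03, adjusted p = 0.552 by limma). Gapdh was higher in both cKO early libraries (312.4 and 276.8) than in WT lysate 2 (253.5), and after scaling above both WT libraries, with a difference of 0.21 (95% interval -0.05 to 0.47, adjusted p = 0.807 by limma). For Aldoa, Pgk1, Pkm, Tpi1 and Gpi1 the differences in early polysomes were between -0.07 and 0.06, and their sign depended on the scaling or on single libraries. WT and cKO values did not overlap for 1 of the 9 in early and 4 of the 9 in late polysomes, beside 37.1% and 40.7% of all genes. For lysate means the count was 4 of the 9 beside 43.6%, and for the late minus early difference 1 of the 9 beside 29.1%.

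**Figure D5:**
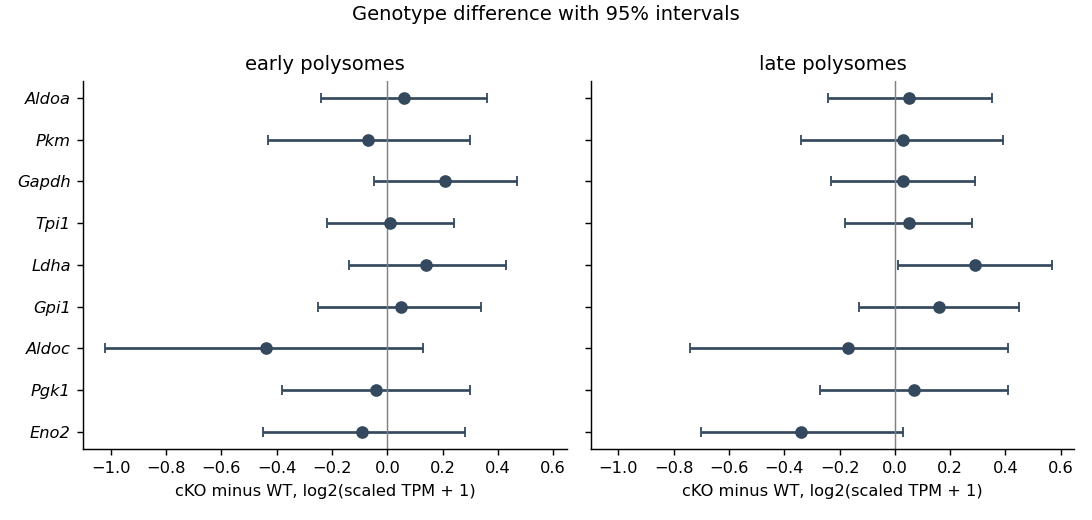
Difference cKO minus WT on the log2(scaled TPM + 1) scale in early (left) and late (right) polysomes for the 9 tested enzymes, with points for limma estimates and bars for 95% intervals. The interval includes 0 for all but Ldha in late polysomes (0.01 to 0.57), which did not pass after adjustment over all genes.

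Whether the late minus early difference depended on genotype was tested as an interaction. None of the 9 enzymes passed by limma (0 called, beside 0.00621% of all genes). At an unadjusted p under 0.05 there were 0 of the 9, beside 2.85% of all genes, and voom likewise gave 0 for both. The interaction was 0.28 for Aldoc (SE 0.35, 95% interval -0.53 to 1.09, adjusted p = 1.0), 0.14 for Ldha (-0.25 to 0.54) and -0.25 for Eno2 (-0.76 to 0.26). With 2 lysates per genotype, a difference between genotypes of up to 1.09 in the late minus early difference of Aldoc lay within the interval. Of the 84 tested genes in the lists of other glycolytic enzymes, transport, regulators, citric acid cycle, gluconeogenesis, pentose phosphate pathway and hypoxia, limma called 0 between genotypes in early, late or lysate-mean comparisons, with 3, 11 and 13 at an unadjusted p under 0.05. Over all genes the shares at that unadjusted p were 6.65%, 9.36% and 11.3%, and nothing is read from these counts. In the interaction 0 of the 84 were called, with 3 at an unadjusted p under 0.05, beside 2.85% of all genes. Voom also called 0 of the 84 in early, late and interaction comparisons, beside 20, 15 and 0 genes over all. On the summed reads of each lysate it called 1, Egln3, beside 58 genes over all.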

How the data were processed

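Polysome-associated RNA from 8 libraries was measured by stranded total RNA sequencing. The authors deposited 1 table of TPM, 1 column per library, each summing to 1000000. Per the submitters' processing notes, the build was mm10 and FastQC, cutadapt, STAR and DESeq2 were used; versions, the counting step and the annotation are not given in the sources used here. The Cre line and some genes that the naming rule picked are not reported here. Groups came from sample titles. The members and gene lists were chosen with earlier results of these data known.

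TPM was divided by median-ratio factors (0.94 to 1.07), and log2(scaled TPM + 1) of the 16097 genes with a mean TPM of at least 1 went into limma 3.58.1 under R 4.3.3 (4 groups in 1 fit, mean-variance trend, two-sided, Benjamini-Hochberg over all genes, threshold 0.05). This scale understates changes of low genes. Lysate means were tested as 2 against 2. Whole reads could be inferred from TPM steps for 100% of the 19783 genes with values in 2 or more libraries (tolerance 0.001 reads) and were used for voom. For lysates, voom took the sum of the early and late reads, whereas limma took the mean of their log2 values. The 9 tested enzymes had 143 to 9690 reads per library. The procedures were tested on simulated data.

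Library names give early and late libraries of a lysate the same name, so late minus early is paired by lysate; the main fit had no block, and the block was an alternative. As a check, the deviations of such libraries from their group means had an r across genes of 0.0863 (WT) and 0.0502 (cKO).

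Gene models were GENCODE vM21 on GRCm38, which may not be the authors' annotation. Aligned identities used Biopython 1.88, and figures matplotlib 3.10.9. Named were the 10 members, Mex3a, the 2 highest and 2 lowest late minus early genes of each pathway list with a mean scaled TPM of at least 5, any list gene past the threshold between genotypes, and the 5 genes most like Aldoc. Paralogs shown beside members, Hk1, Hk2, Pfkm, Pfkp and Pgam1 were added after their values were seen. Alternatives were pseudocounts of 0.1 and 0.5, a minimum mean TPM of 5 or none, unscaled or quantile-normalized values, no trend, replicate blocks, only the 4 libraries compared, voom, and leaving out each library.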

Additional observations from a re-analysis of the deposited data

How the results depend on the processing

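No alternative run called any of the 9 enzymes between genotypes or in the interaction, and the late minus early difference of each stayed above 0 in all. Over all genes, the 7 early genotype calls became 11 without a filter, 4 at a higher filter (mean TPM of 5), 0 (1043 unadjusted) with only the 4 libraries compared and 20 by voom. The 2 late calls became 1 with a pseudocount of 0.1, the higher filter or only the 4 libraries, 4 without a filter, 5 without the trend and 15 by voom. The 1 call on lysate means became 0 without a filter (2115 unadjusted) or without the trend (1673 unadjusted). By voom, on the summed reads of each lysate, there were 58. The 1 interaction call became 6 without a filter, 0 at the higher filter (324 unadjusted) or by voom (404 unadjusted) and 2 without the trend. Leaving out 1 library at a time gave 0 to 9 early, 0 to 13 late, 1 to 10 lysate-mean and 1 to 7 interaction calls, and 5874 (without WT early lysate 2) to 8968 calls for late minus early in WT.

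With the replicate block by lysate, calls were 11004 for late minus early on average, 8660 in WT, 9245 in cKO and 1 in the interaction. The count of the 9 enzymes went from 9 to 8 in WT and in cKO, through Tpi1 (adjusted p = 0.082 in WT and 0.0547 in cKO by limma), and stayed at 9 on average; in WT it was also 8 without the trend. WT and cKO lysates share only a number: deviations of same-numbered lysates had an r of 0.332 (early) and 0.143 (late), and the replicate block by number gave 7 early, 2 late and 85 lysate-mean calls, with adjusted p of 0.0769 for Aldoc and 0.0932 for Ldha on lysate means.

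Small genotype differences changed sign. With TPM as deposited, early Tpi1 was -0.05 and Gpi1 -0.01, late Gapdh and Pkm -0.01, lysate-mean Pgk1 -0.03 and Tpi1 -0.02, and the Aldoa interaction 0.01. With quantile normalization, early Tpi1 was -0.01, late Gapdh -0.0033 and Pkm -0.0023, and the Aldoa interaction 0.0037. By voom on the summed reads of each lysate, which is not the same quantity as the lysate mean, Aldoa was -0.03, Pgk1 -0.05 and Tpi1 -0.0046. Leaving out each library gave early ranges of -0.06 to 0.18 (Aldoa), -0.21 to 0.04 (Eno2), -0.10 to 0.19 (Gpi1), -0.24 to 0.16 (Pgk1), -0.25 to 0.12 (Pkm) and -0.04 to 0.07 (Tpi1), and late ranges of -0.02 to 0.12 (Aldoa), -0.07 to 0.13 (Gapdh), -0.03 to 0.16 (Pgk1), -0.09 to 0.14 (Pkm) and -0.04 to 0.13 (Tpi1). On lysate means they were -0.13 to 0.16 (Pgk1) and -0.17 to 0.13 (Pkm). Interaction ranges were -0.13 to 0.12 (Aldoa), -0.08 to 0.64 (Aldoc), -0.03 to 0.26 (Gpi1), -0.09 to 0.31 (Pgk1), -0.09 to 0.28 (Pkm), -0.05 to 0.12 (Tpi1) and -0.50 to 0.02 (Mex3a). The cause was not tested. Mex3a lost its call with only the 4 early libraries (adjusted p = 0.0843 by limma) and on lysate means without a filter (0.165) or trend (0.0654).

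Each genotype rests on 2 lysates. At most 5 inferred reads per library lay behind Eno1, too few to compare groups.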

Other observations

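Outside the enzymes themselves, the hypoxia list held the gene with the lowest unadjusted p between genotypes among all pathway lists. Egln3, a prolyl hydroxylase that marks hypoxia-inducible factor for degradation and is itself known as a hypoxia-induced gene, was at 8.787 and 9.256 TPM in WT early and 15.09 and 15.84 in cKO early libraries. In late libraries it was at 5.832 and 5.48 in WT and 8.572 and 8.592 in cKO. Both cKO values were thus above both WT values in each fraction. The log2 difference was 0.77 in early polysomes (SE 0.13, unadjusted p = 0.000362, adjusted p = 0.224 by limma) and 0.56 in late polysomes (SE 0.13, adjusted p = 0.344 by limma), and neither passed over all genes. On lysate means it was 0.66 (adjusted p = 0.21 by limma). By voom on the summed reads of each lysate, a different quantity, it was 0.81 (adjusted p = 0.0483), the only setting of these in which it passed. That voom run called 58 genes over all, against 1 by limma on lysate means. Egln3 was named after its values were seen.

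Some isoenzymes known from other tissues were at or near the lower end of the table. Pgk2, the testis form of phosphoglycerate kinase, was listed at 0 in all 8 libraries, the sperm form Gapdhs at 0 to 0.5707 TPM, and Ldhc at 0.3178 to 1.668 TPM. Others were not: the muscle-type Eno3 was at 23.3 to 88.08 TPM and the liver-type Pfkl at 14.28 to 74.22 TPM.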
